A study of Mus musculus with 22 samples.

Results

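The mouse Adgrg1 locus, formerly Gpr56, was examined in peak lists of 2 histone marks from purified cells of the developing neocortex. All peaks overlapping chromosome 8 from 97.48 to 97.55 Mb (build mm9) were taken. They numbered 4 of the 110069 peaks in the 10 lists, and all 4 were H3K4me3 peaks. The interval was chosen by its pattern in these same lists, in that one broad peak in it had the highest fold enrichment among aRG-N peaks lacking an aRG-P counterpart. Presence in the lists, fold enrichment and width are therefore given as descriptions without a test. The lists hold positions and no gene symbols. The assignment of the interval to Adgrg1 comes from the choice of interval, and the name "alternative promoter" given to the broad peak could not be checked against mm9 transcripts.

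All cells came from C57BL/6JOlaHsd mice without any labelled genetic change or treatment. Neuroepithelial cells (NEC), from which all later cortical progenitors descend, were taken at E9.5 (embryonic day). The other 4 cell types were taken at E14.5. They were neurons (N), the basal radial glia (bRG) that divide away from the ventricle, and 2 kinds of apical radial glia that divide at it, proliferative (aRG-P) and neurogenic (aRG-N). Each of the 5 cell types had 2 samples for each mark, and 2 Input samples pooled both ages. The labels call the aRG-N H3K27me3 pair technical replicates. How the cells were purified is not given in the sources used here, and their identity was not checked against marker genes, which the lists do not name. One list per cell type and mark was deposited, called on combined samples, so values have no replicate error and cell types could not be compared by a test. Read depth is unknown.

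Adgrg1 encodes an adhesion G protein-coupled receptor, a family whose members typically carry a long extracellular part. In many members this part is cut from the membrane-spanning part by self-cleavage. In the cortex the receptor is known from radial glia, and loss of its human counterpart causes a malformation of the cortical surface. The gene is known for several alternative first exons, each with its own promoter. H3K4me3 is found at active and poised promoters, and its width along the DNA varies between genes. H3K27me3 is the mark of Polycomb repression.

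RefSeq (build GRCm38.p6, gene 14766) lists 2 curated and 18 predicted Adgrg1 transcripts and places the gene between Adgrg5 and Adgrg3, which encode receptors of the same group. The RefSeq promoter table holds 2 Adgrg1 start sites, 7290 bp apart on the plus strand. Both sequences are shown because they are the annotated starts to which promoter H3K4me3 of this gene would be compared. Each runs from 250 bases before the start to 50 after it, and capitals mark CpG dinucleotides. These GRCm38.p6 positions cannot be set against the mm9 positions of the peaks, so which start, if either, lies under a peak was not determined.
Adgrg1 promoter at chr8:94976859-94977158, plus strand: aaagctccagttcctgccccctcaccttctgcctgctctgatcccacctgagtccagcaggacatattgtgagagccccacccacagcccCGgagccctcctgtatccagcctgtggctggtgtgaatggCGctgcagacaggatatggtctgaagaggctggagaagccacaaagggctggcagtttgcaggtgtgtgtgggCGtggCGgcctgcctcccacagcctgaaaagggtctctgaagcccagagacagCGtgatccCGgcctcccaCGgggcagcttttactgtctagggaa
Adgrg1 promoter at chr8:94984149-94984448, plus strand: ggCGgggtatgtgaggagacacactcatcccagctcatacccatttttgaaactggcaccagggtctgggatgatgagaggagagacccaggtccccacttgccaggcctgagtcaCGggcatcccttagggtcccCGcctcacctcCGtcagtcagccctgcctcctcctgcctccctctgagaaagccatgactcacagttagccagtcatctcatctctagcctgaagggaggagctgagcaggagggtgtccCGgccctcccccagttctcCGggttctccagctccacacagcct

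Both Adgrg1 promoters had a GC content above the median of all promoters and a CpG content in the middle of the range. The promoter at the lower position held 7 CpG and the other 6, and the median over 32851 promoters of the same length was 7. Their GC content was 60.7% each, against a median of 52.7%. The ratio of observed to expected CpG was 0.254 at the first and 0.222 at the second, against a median of 0.384. Of all promoters, 36.2% had a lower ratio than the first and 31.9% a lower ratio than the second. Both ratios lay somewhat below the median.

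H3K4me3 in the window was listed in 2 of the 5 cell types, aRG-N and bRG, and in both it lay within the same 6115 bp. The aRG-N list held a broad peak on chromosome 8 from 97518140 to 97522709 and a small one from 97523872 to 97524254. The bRG list held 2 small peaks, from 97520801 to 97521371 and from 97521634 to 97521849, both inside the broad aRG-N peak. The NEC, aRG-P and N lists held no H3K4me3 peak in the window. No list held an H3K27me3 peak there.

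**Figure D1:**
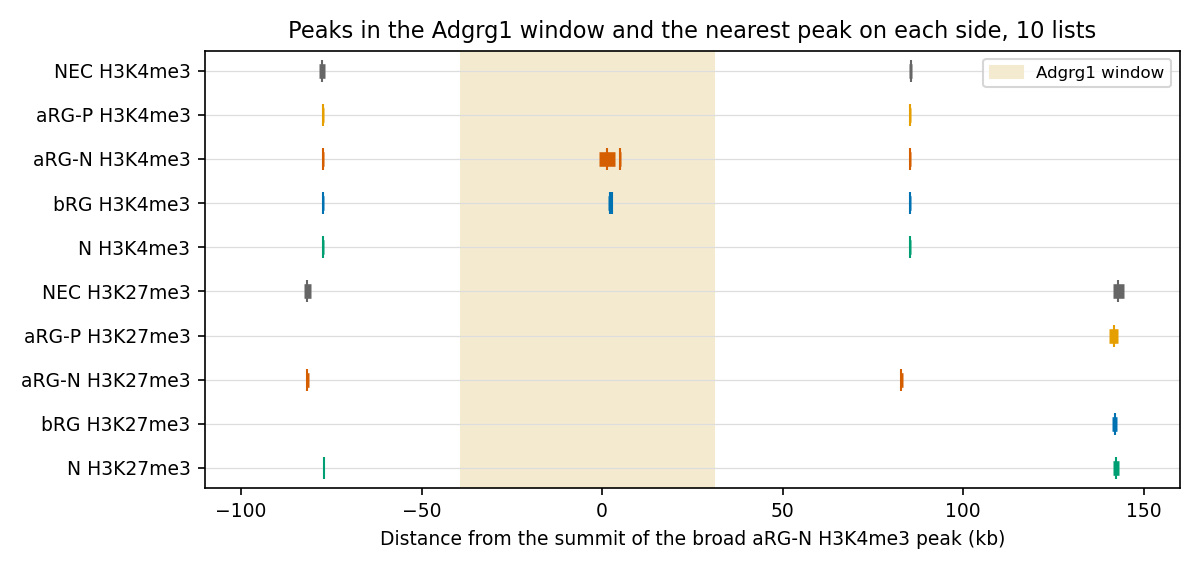
Peaks of the 10 lists in the Adgrg1 window (shaded) and the nearest listed peak on each side of it, against distance in kb from the summit of the broad aRG-N peak. Bars span the peaks and vertical ticks mark their middles, and peaks farther out than the nearest are not drawn. The nearest lower-side H3K27me3 peaks of aRG-P and bRG lie beyond the x axis and are not drawn either. Between the H3K4me3 peaks on both sides, which all 5 lists share, only aRG-N and bRG have peaks.

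The broad aRG-N peak was 4570 bp wide, with a fold enrichment over background of 14.3 as the authors' peak caller gave it, a −log10 p of 44.3 and a −log10 q of 40.9. Its width stood out more than its height. It ranked 43 by width among the 14801 aRG-N H3K4me3 peaks, of which 99.7% were narrower. By fold enrichment it ranked 5181, with 65.0% of the list lower. The median aRG-N peak was 927 bp wide with a fold enrichment of 11.8.

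The second aRG-N peak, 1162 bp beyond the broad one, was near the lower end of its list. It was 383 bp wide, with a fold enrichment of 4.12 and a −log10 q of 4.01. Only 2.90% of aRG-N peaks had a lower fold enrichment, while the lowest −log10 q in the list was 1.41. From the start of the broad peak to the end of the small one the aRG-N mark spanned 6115 bp.

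The bRG peaks were small and weak within their own list. The first was 571 bp wide with a fold enrichment of 6.21 and a −log10 q of 9.31, and 26.4% of the 15085 bRG peaks had a lower fold enrichment. The second, 262 bp farther on, was 216 bp wide with a fold enrichment of 4.16 and a −log10 q of 3.53, and 4.87% of the list had a lower fold enrichment. The median bRG peak was 756 bp wide with a fold enrichment of 8.53. Fold enrichments of separate lists do not measure a change between cell types, so the aRG-N and bRG values stand side by side only.

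The bRG peaks did not lie at the summit of the aRG-N peak. The aRG-N summit was at 97519050, 910 bp from the start of the peak. The bRG summits were at 97520969 and 97521679, which is 1919 and 2629 bp farther along. The first bRG peak began 1751 bp past the aRG-N summit, and together the bRG peaks covered 787 bp, 17.2%, of the broad peak. Among the 13305 aRG-N peaks that overlapped a bRG peak, the median share covered was 87.2%, and 0.158% of them (21 peaks, the Adgrg1 one included) were covered over no larger a share. A summit outside every bRG peak was found in 1.41% of the 13305, and in 3 of the 5184 with at least the fold enrichment of the Adgrg1 peak (0.0579%).

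**Figure D2:**
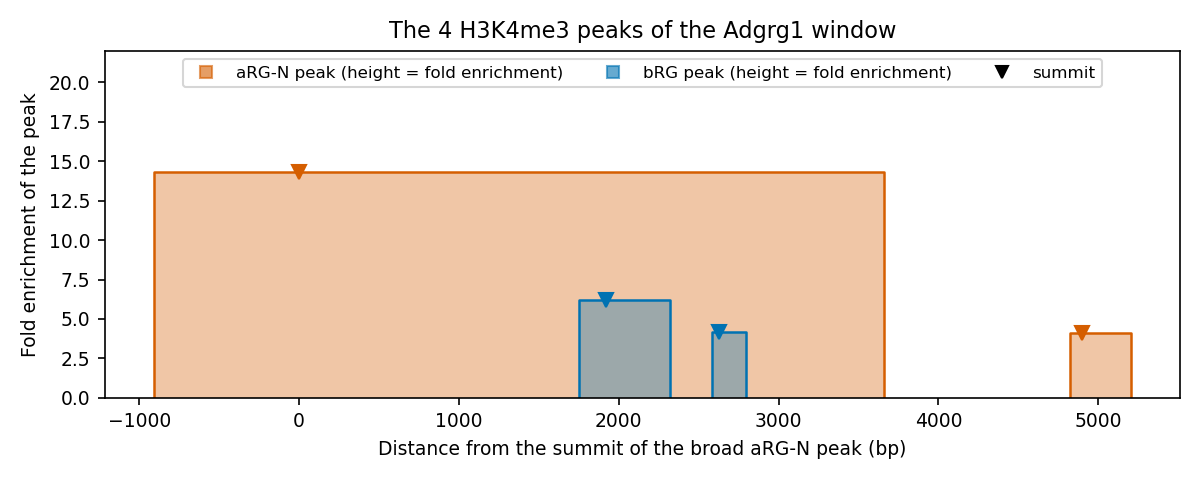
The 4 H3K4me3 peaks of the window, drawn from start to end on the x axis (bp from the summit of the broad aRG-N peak) and up to their fold enrichment on the y axis, with summits as triangles. Both bRG peaks, at 6.21 and 4.16, lie inside the broad aRG-N peak at 14.3 and beyond its summit, and the small aRG-N peak at 4.12 lies outside it.

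A peak that is missing from a list can still have been called. The peak names are numbered along the genome, so a skipped number marks a call that the list used here does not hold. Between the H3K4me3 peaks on either side of the window, about 162 kb apart, the aRG-N list skipped no number, so its 2 peaks are all that was called there. The NEC list skipped 1 number, the aRG-P list 2 and the N list 1. Among stretches of like length between neighbouring listed peaks, 25.6% in NEC, 10.9% in aRG-P and 14.3% in N skipped any number. Where in the stretch these calls lay is not known, so the site cannot be stated to be without a call in NEC, aRG-P or N.

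The bRG list skipped 2 numbers between the peak on the lower side, ending at 97442098, and its first peak in the window. That stretch of 78.7 kb takes in the first 2661 bp of the broad aRG-N peak, its summit included. Among bRG stretches of like length to that between the peaks on both sides of the window, 11.2% skipped any number. No number was skipped after the first bRG peak, so no bRG call was made over the last 860 bp of the broad aRG-N peak or at the small one. The 17.2% covered is therefore the share covered by listed bRG peaks.

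For H3K27me3 the numbering left no such doubt. In all 5 H3K27me3 lists the peaks on either side of the window carried consecutive numbers, so no call was made between them in any cell type. These stretches free of H3K27me3 measured 164 kb in aRG-N, 218 kb in N, 222 kb in NEC, 438 kb in aRG-P and 439 kb in bRG. Distance from the broad H3K4me3 peak to the nearest H3K27me3 peak was 76.0 kb in N, 78.8 kb in aRG-N, 79.9 kb in NEC, 136.9 kb in aRG-P and 137.6 kb in bRG. Such distances were common. The shares of H3K4me3 peaks at least as far from H3K27me3 of the same cell type were 49.1% for aRG-N, 37.7% for NEC, 45.3% for aRG-P, 53.5% for bRG and 53.1% for N. Of all 17229 joined H3K4me3 regions, made by merging peaks of the 5 lists that shared at least 1 bp, 68.4% overlapped no H3K27me3 peak in any list.

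H3K4me3 on both sides of the window was listed in all 5 cell types. The nearest region on the lower side, from 97440545 to 97442244, lay 75.9 kb from the broad peak. Its fold enrichment was 14.9 for aRG-N, 29.1 for NEC, 9.85 for aRG-P, 7.50 for bRG and 4.97 for N. The nearest on the higher side, from 97604019 to 97604907, lay 81.3 kb away, with 6.98 for aRG-N, 21.2 for NEC, 8.57 for aRG-P, 6.73 for bRG and 8.53 for N. These regions bound the rule's window from outside, and the broad and small aRG-N peaks are the members nearest its edges.

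Within the aRG-N list the fold enrichment of the broad peak was close to that of 2 constitutive regions beside the window and above that of the third. It was 0.961 times that of the lower-side region, 2.05 times that of the nearest higher-side region and 1.03 times that of the next one, from 97605097 to 97605896. Within the bRG list the first bRG peak reached 0.828, 0.923 and 0.415 times the values of the same 3 regions. Its value was thus below all of them in bRG.

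**Figure D3:**
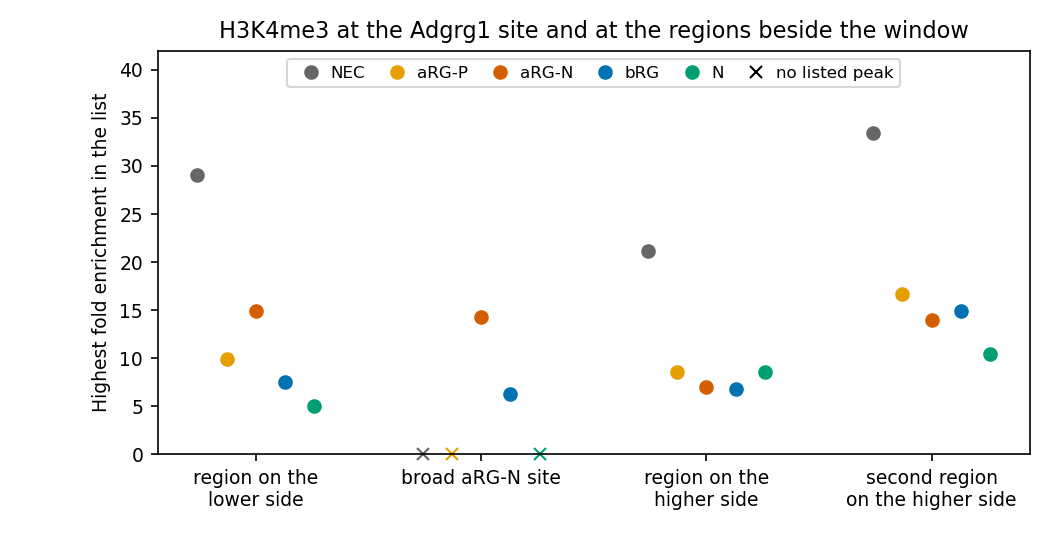
Highest fold enrichment in each H3K4me3 list (y axis) at the broad aRG-N site and at the region on the lower side and 2 regions on the higher side of the window, with crosses where a list holds no peak. The 3 outer regions have a value in all 5 cell types, from 4.97 to 33.5, and the site has 14.3 in aRG-N and 6.21 in bRG only.

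Lacking a peak in another list was uncommon for an aRG-N peak of this height or width. Over all 14801 aRG-N peaks, 11.7% overlapped no aRG-P peak, 10.8% no N peak and 2.5% no NEC peak, while 89.9% overlapped a bRG peak. The rule used these lists, so nothing is read from the place of the Adgrg1 peak among them. The 1731 aRG-N peaks that met no aRG-P peak had a median fold enrichment of 5.07 and a median width of 331 bp. The Adgrg1 peak was the first of them in both measures. Its first place by fold enrichment was fixed by the choice of interval. The next had a fold enrichment of 14.1, and the next in width measured 2625 bp.

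A fold enrichment within 10% of that of the Adgrg1 peak was found in 2557 aRG-N peaks, itself included. Of these, 2 lacked an aRG-P peak, 8 lacked a NEC peak, 8 lacked an N peak and 1 lacked a bRG peak. The Adgrg1 peak is 1 of the 2 by the choice of interval, so nothing is read from its place there. Where bRG had a peak, its median fold enrichment was 10.1, and 19 of these peaks were no higher in bRG than the 6.21 at Adgrg1. Their median width in aRG-N was 1168 bp.

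The 43 aRG-N peaks at least as wide as the Adgrg1 peak, itself included, reached 16917 bp and had a median fold enrichment of 18.4, with 6 lower than the Adgrg1 peak. Adgrg1 was the only one of them without an aRG-P peak, and it was 1 of 2 without a NEC peak and 1 of 2 without an N peak. Its lack of an aRG-P peak was a condition of the choice of interval, so nothing is read from it. All 43 overlapped a bRG peak. The widest bRG peak at each had a median of 4520 bp, and at Adgrg1 alone it was no wider than 571 bp. Their median coverage by bRG was 87.0%. Another of the 43, 6460 bp wide with a fold enrichment of 14.4, was covered over 10.85%, a smaller share than the 17.2% at Adgrg1. Of the 43, 3 had a summit outside every bRG peak (6.98%), and 19 had no H3K27me3 in any list.

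**Figure D4:**
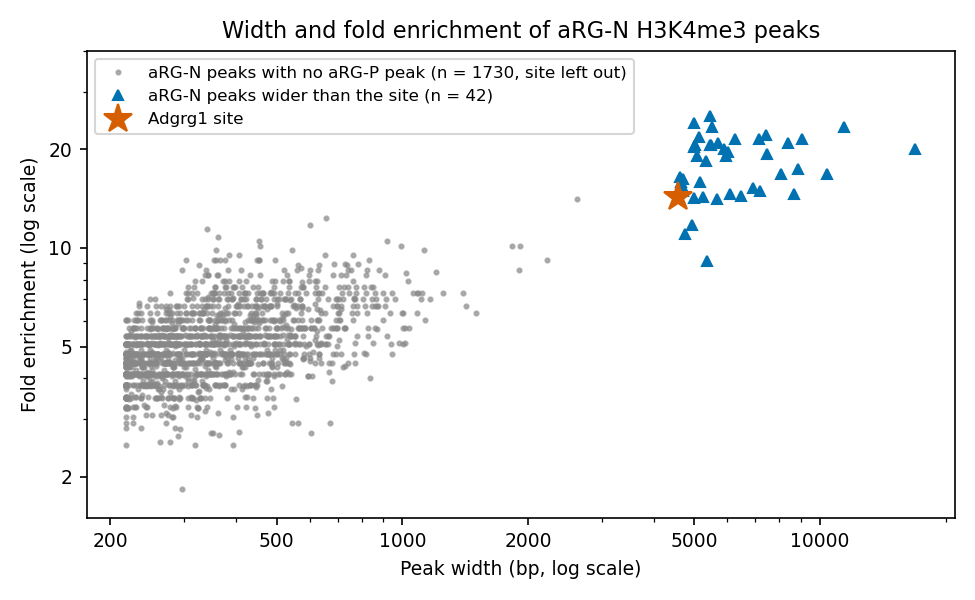
Fold enrichment against width (bp), both on log scales, for aRG-N H3K4me3 peaks that met no aRG-P peak (grey points), for aRG-N peaks wider than the Adgrg1 site (blue triangles) and for the site (star). The site, 4570 bp wide at 14.3, lies apart from the grey points, the next of which measures 2625 bp, and at the edge of the broad peaks. It was chosen for having the highest fold enrichment among peaks that met no aRG-P peak.

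The full pattern of the site, H3K4me3 listed in aRG-N and bRG only and H3K27me3 in no list, was shared by 15 of the 17229 joined regions (0.0871%), the site included. That count depended on the rule: it was 57 in lists cut to equal length, 7 when a peak within 5000 bp counted as present and 6 when peaks up to 3000 bp apart were joined. With a −log10 q of at least 5 it was 10. Counting any H3K27me3 there were 22 (0.128%), and 136 regions (0.789%) had H3K4me3 in aRG-N alone, as the small second peak did. The Adgrg1 site ranked first of the 15 by aRG-N fold enrichment and by width, and second by bRG fold enrichment. Its first place by aRG-N fold enrichment was fixed by the choice of interval, since all 15 lacked an aRG-P peak. The other 14 had a median aRG-N fold enrichment of 5.23 and a median width of 463.5 bp. Their fold enrichments ran from 2.91 to 9.20, and the widest measured 1107 bp.

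The 5 regions most like the site, matching it in all 10 lists and next in aRG-N fold enrichment, are given by position, since the lists name no genes. The first, on chromosome 6 from 53523389 to 53523753, reached 9.20 in aRG-N and 6.22 in bRG. A region on chromosome 16 from 36784288 to 36784905 had 7.93 in aRG-N and 4.39 in bRG. On chromosome 8 from 130884843 to 130885949 the values were 6.98 and 4.67, and on chromosome 4 from 154392742 to 154393505 they were 6.98 and 3.90. The last, on chromosome 16 from 46008503 to 46008949, had 5.39 and 4.42. Of the 5, 3 lay close to another H3K4me3 region: the chromosome 6 region at 0.367 kb, the chromosome 8 region at 0.202 kb and the last at 0.075 kb. The other 2 were 43.0 kb and 23.4 kb from the nearest, and the Adgrg1 site was 1.16 kb from the small aRG-N peak. In each of the 5 the aRG-N value was the higher, as at Adgrg1, although aRG-N fold enrichments ran higher over the whole list as well. The 5 were also picked for a high aRG-N value. In the region of the pattern with the lowest aRG-N value, bRG was the higher, at 3.27 against 2.91.

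Of the 15 regions, 7 had no skipped number beside them in NEC, aRG-P and N, so by the numbering no call was made there in those cell types. The Adgrg1 site was not among the 7.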

How the data were processed

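Chromatin was immunoprecipitated for H3K4me3 or H3K27me3 with a kit for low cell numbers, per the labels' protocols. Build mm9 and the tools Bowtie 1.0.0, bedtools and MACS2 are named in the submitters' processing notes. Per the peak names, each of the 10 deposited lists was called on combined samples, most with duplicates removed. For H3K27me3, the aRG-P peak names speak of an excluded set and the N peak names of an extension by 200 bp. Only peaks near transcripts are listed, per the file headers, with 2000 bp given in the aRG-P and aRG-N H3K4me3 headers. A call farther from a transcript would be dropped, and the lists compared here could differ in that step.

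For H3K4me3 the deposited values were, for each peak, the ratio to background called fold enrichment and the −log10 p and −log10 q, as the authors' peak caller gave them. The deposited H3K27me3 columns are treated as a score of unsettled meaning and were used only to shorten lists. No column was left without a group, and the Input samples were not analysed here.

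Members were all peaks overlapping the window by at least 1 bp. Positions are 1-based. Peaks of the 5 H3K4me3 lists sharing at least 1 bp were joined into regions. Skipped peak numbers were counted between listed neighbours. Stretches or peaks were called like in length or fold within 10%. Regions named as most alike match the site in all 10 lists and are the 5 with the highest aRG-N fold enrichment. No test was made, since each group is 1 list. The members, comparisons and settings were chosen with earlier results of these data known, and the sets of like width, fold and stretch length after the values were seen. Python 3.11.15, numpy 2.4.6, pandas 2.3.3 and matplotlib 3.10.9 were used. On lists simulated from the 14801 aRG-N H3K4me3 peaks with 200 planted regions of the aRG-N and bRG pattern, all 200 were recovered with 0 false calls. The simulated lists were exact copies of the aRG-N list, with the planted peaks taken out of NEC, aRG-P and N. Peak edges did not vary between them, so this checked the code only. The closing section gives the alternatives.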

Additional observations from a re-analysis of the deposited data

How the results depend on the processing

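The listing of the site in 2 H3K4me3 lists was the same under all 4 alternatives run for it: a −log10 q of at least 5, an overlap of at least 50%, a peak within 5000 bp counted as present, and lists cut to equal length. The overlap limit could not change this, since both bRG peaks lie inside the broad aRG-N peak. Nor could the 5000 bp margin, since the nearest peaks lay 75.9 kb away in NEC, 76.1 kb in aRG-P and 76.1 kb in N. The q limit and the cut in length only take peaks away, so neither could turn an absence into a presence. The q limit left 1 bRG peak at the site. The count of H3K4me3 regions in the window went from 2 to 1 under the q limit, which removed the small aRG-N peak, and to 1 when peaks up to 3000 bp apart were joined. The 0 H3K27me3 lists with a peak in the window rose to 3 when it was widened by 50 kb on both sides, and stayed 0 under the other 3 alternatives. The 15 regions with the pattern of the site became 7 when a peak within 5000 bp counted as present, 57 in lists of equal length and 6 when peaks up to 3000 bp apart were joined, while the site kept the pattern in each. The remaining 12 of the 18 alternatives left their counts within 1.5 times. At the edge of that range was the q limit, under which the 15 regions became 10. No paired analysis was possible because each group was deposited as 1 list of combined samples, and for the same reason no replicate could be left out. Unknown read depth limits every absence: a weak mark in NEC, aRG-P or N could not be told from none.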

Other observations

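The constitutive H3K4me3 region on the lower side of the window carried H3K27me3 in neurons. The N H3K27me3 peak from 97441781 to 97442125, 345 bp wide, overlapped it, and no other H3K27me3 list held a peak there. H3K27me3 near this region was not limited to neurons. Just below its start at 97440545, NEC had a peak from 97436573 to 97438259 and aRG-N had one from 97436950 to 97437770. In the N H3K4me3 list this region was low, with 11.1% of peaks having a lower fold enrichment, against 67.6% for aRG-N, 74.4% for NEC, 55.4% for aRG-P and 38.6% for bRG. Neither of the 2 regions on the higher side overlapped H3K27me3 in any list.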
